A study of Homo sapiens with 6 samples.

Results

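The snoRNA host genes were followed as 33 of the 38557 gene symbols in the deposited tables: the 28 symbols made of SNHG and a number, together with GAS5, ZFAS1, DANCR, EPB41L4A-AS1 and SNORD3A. Sequencing of poly(A) RNA covered T-24, an epithelial cell line derived from a human urinary bladder cancer labelled as wild type. Cells received 1 µM CCT068127 or its vehicle DMSO for 48 hours, with 3 libraries in each group. CCT068127 is a small molecule known to inhibit the kinases CDK2 and CDK9. All libraries come from this single line, which limits the model to it. The labels describe the 3 libraries of a group as independent biological replicates.

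Small nucleolar RNAs (snoRNAs) guide the chemical modification and the cleavage of ribosomal RNA in the nucleolus. Box C/D snoRNAs direct 2'-O-methylation with the methyltransferase fibrillarin, box H/ACA snoRNAs direct pseudouridylation with dyskerin, and scaRNAs do the same work on spliceosomal RNAs in Cajal bodies. Most human snoRNAs are cut out of introns, and the spliced remainder of the host gene is the RNA that a poly(A) library reads. The host transcripts of the SNHG family code for no known large protein, many of them start at a 5' terminal oligopyrimidine (TOP) tract as ribosomal protein mRNAs do, and several are degraded by nonsense-mediated decay when they are translated. These measurements therefore concern the host RNAs and say nothing of the mature snoRNAs. SNORD3A differs from the other members in being the gene of the U3 snoRNA itself. Mature U3 carries no poly(A) tail, so the SNORD3A values are no sure measure of it.

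Against RefSeq positions on GRCh38.p14, 30 of the 33 genes held at least 1 snoRNA or scaRNA inside their span. SNHG27 and SNHG28 held none, and SNORD3A is itself a snoRNA. GAS5 held 10 box C/D snoRNAs and SNORA103, SNHG1 held 8 box C/D snoRNAs, and SNHG14, the long transcript of the Prader-Willi locus, held 83.

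The start regions of the host RNAs that the results turn on are shown first, because a C followed by pyrimidines at the start is what defines a TOP RNA. Each line gives 80 bases from RefSeq (GRCh38.p14), 5' to 3' on the gene's strand, with the annotated start 40 bases from the left end. Capitals mark a run made of a C within 10 bases of the start and the 4 or more pyrimidines (C or T) that follow it. In SNHG29 and SNHG7 the pyrimidine tract continues to the left of the capitals. Only its part from 10 bases before the start was marked and counted. The first 4 are the hosts with the highest levels per length among those in the table. The other 5 were picked after their values were seen, for the size of their change or of their change in length.
SNHG29, chr17:16438947-16439026, plus strand: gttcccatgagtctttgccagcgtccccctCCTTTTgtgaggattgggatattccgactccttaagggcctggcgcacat
ZFAS1, chr20:49278602-49278681, plus strand: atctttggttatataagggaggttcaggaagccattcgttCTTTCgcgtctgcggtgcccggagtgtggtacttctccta
SNHG32, chr6:31834876-31834955, plus strand: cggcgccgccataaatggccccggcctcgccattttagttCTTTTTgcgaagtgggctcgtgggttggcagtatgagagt
GAS5, chr1:173869006-173869085, minus strand: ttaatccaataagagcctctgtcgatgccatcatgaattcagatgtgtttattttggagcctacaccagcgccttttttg
SNHG8, chr4:118278722-118278801, plus strand: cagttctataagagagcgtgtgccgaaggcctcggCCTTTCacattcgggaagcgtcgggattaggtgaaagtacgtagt
SNHG5, chr6:85678694-85678773, minus strand: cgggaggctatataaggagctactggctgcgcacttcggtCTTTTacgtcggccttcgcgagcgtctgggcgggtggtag
SNHG7, chr9:136728145-136728224, minus strand: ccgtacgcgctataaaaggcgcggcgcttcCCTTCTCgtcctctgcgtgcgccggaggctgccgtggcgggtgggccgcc
SNHG12, chr1:28581834-28581913, minus strand: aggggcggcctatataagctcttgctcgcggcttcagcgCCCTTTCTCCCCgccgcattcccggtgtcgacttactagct
SNHG3, chr1:28505903-28505982, plus strand: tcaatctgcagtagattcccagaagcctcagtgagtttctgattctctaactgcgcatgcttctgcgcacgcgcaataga
The starts are those of the promoter table, which for SNHG12 and ZFAS1 lie 1110 and 464 bases inside the RefSeq gene span, and for the other 7 at its edge. In SNHG32, ZFAS1 and SNHG5 the run began exactly at the annotated start, in SNHG12 it began 1 base before it, and in GAS5 and SNHG3 no run lay within 10 bases. Of the 28 hosts in the promoter table, 7 (25.0%) had the run at the start and 17 (60.7%) had one within 10 bases. A run at the start means a C on the start base and at least 4 pyrimidines after it, whatever lies before. The run of SNHG8 ends on its start base, so it is not among the 7. Over all 35116 promoters in that table the shares were 4.07% and 33.5%, and over the 83 tested ribosomal protein genes they were 57.8% and 79.5%. The letters TATAA, on the gene's strand between 45 and 11 bases before the start, were in 6 of 28 hosts (21.4%: SNHG12, SNHG19, SNHG5, SNHG7, SNHG8 and ZFAS1) and in 4.25% of all promoters. This motif was added after the sequences had been seen. CACGTG, the E-box bound by MYC, read on both strands of the 300-base window, was in 2 of 28 (7.14%) and in 7.26% of all. A match is a description of letters, and annotated starts can be off by some bases.

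Of the 33 host genes, 27 passed the low-count filter (at least 1.74 CPM in 3 or more libraries) and were tested. In CCT068127-treated cells 8 of them rose and 11 fell at an adjusted p under 0.05 (edgeR quasi-likelihood test, two-sided, Benjamini-Hochberg adjustment over 13597 genes), and 8 did not pass. Among all tested genes 31.9% rose and 32.8% fell, so 8 and 11 of 27 lie near the shares of genes at large. Their median log2 fold change was -0.15, against -0.05 over all tested genes. The spread among them was wide: SNORD3A, SNHG9, SNHG3 and SNHG15 rose by at least 2-fold, while GAS5, SNHG8, EPB41L4A-AS1, SNHG18 and SNHG5 fell by at least 2-fold. SNORD3A and SNHG9 passed the filter only because of their values in the CCT068127 libraries. The CPM values (estimated counts scaled to library depth by TMM) of the groups did not overlap for 21 of the 27, 9 with higher and 12 with lower values under CCT068127, and this was so for 69.4% of all tested genes.

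**Figure D1:**
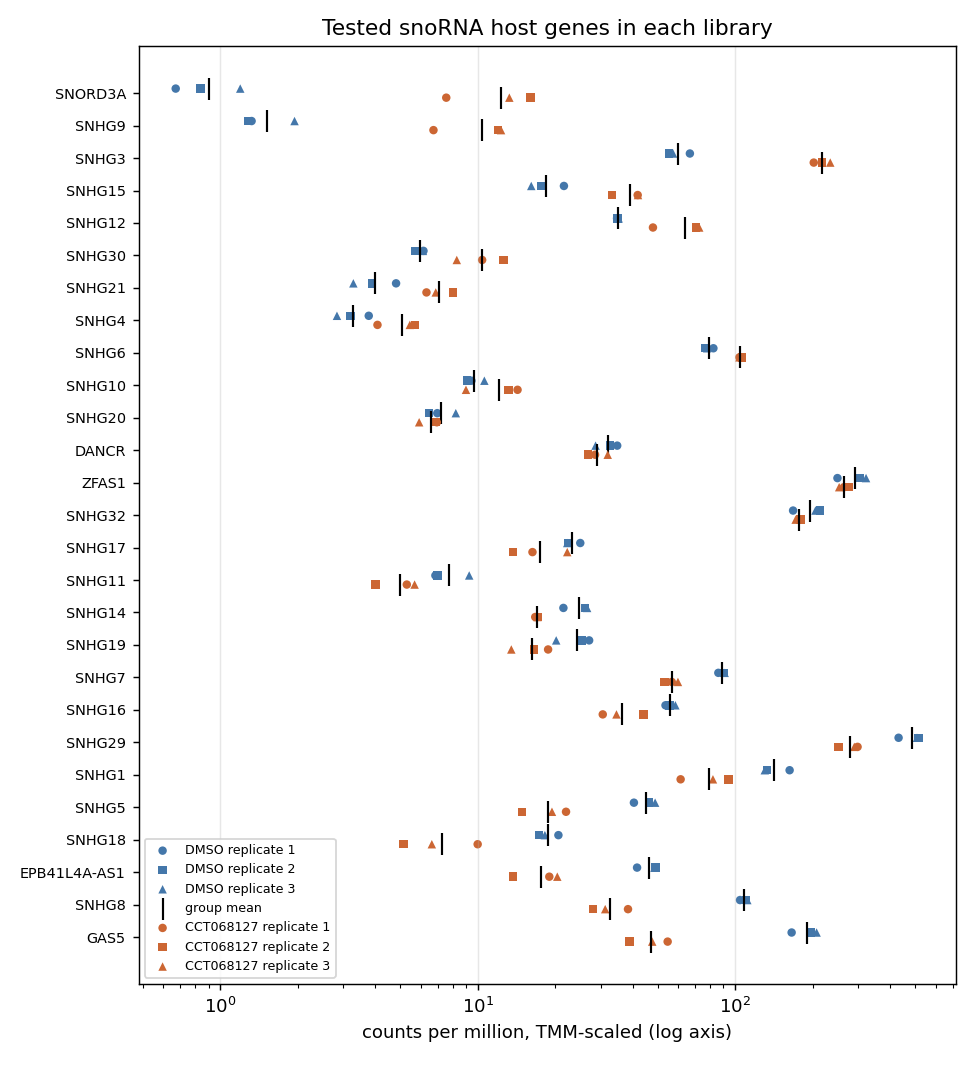
CPM of the 27 tested snoRNA host genes in each library, on a log axis, ordered by fold change with the highest at the top. Blue points are DMSO and orange points CCT068127 libraries, with a shape for each replicate and a black tick at each group's mean. The CCT068127 points of SNORD3A, SNHG9 and SNHG3 sit far to the right of the same gene's DMSO points, and those of GAS5 and SNHG8 far to the left.

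The host RNAs that fell included several of the most abundant. As a sum the 33 genes held 0.532, 0.581 and 0.594% of all TPM (a level per transcript length with the same sum in each library) in DMSO and 0.303, 0.319 and 0.318% under CCT068127. SNHG29, ZFAS1, GAS5 and SNHG32 together made up between 56.8 and 62.3% of this sum in DMSO, and between 49.5 and 54.6% under CCT068127. The order at the top differed: SNHG29 stood at 1056, 1266 and 1203 TPM in DMSO and at 529, 434 and 464 TPM under CCT068127. ZFAS1 stood at 795, 941 and 1036 TPM in the controls and at 574, 647 and 571 TPM in the treated libraries. In every DMSO library SNHG29 was the higher of this pair, and in every CCT068127 library ZFAS1 was. GAS5 was next in DMSO, at 646, 756 and 809 TPM, and overlapped with SNHG32 there, at 525, 654 and 643 TPM. Under CCT068127, GAS5 stood at 152, 109 and 138 TPM, below SNHG32 at 399.7, 423 and 398 TPM and below SNHG6 at 247, 259 and 257 TPM in every library.

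The direction of small changes depended on the scaling. With scaling by library totals in place of TMM the median over all tested genes moved from -0.05 to -0.36, and all 27 host genes had lower fold changes. The split of calls among them became 5 higher and 16 lower, with a median of -0.46, while 22.1% of all tested genes were then called higher and 48.3% lower. On log2(TPM + 1) values, where the median of all genes was -0.46, it was 6 higher and 18 lower of 30 tested, with a median of -0.62, beside 17.2% higher and 51.9% lower over all genes. Small changes are therefore given relative to the TMM zero line.

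**Figure D2:**
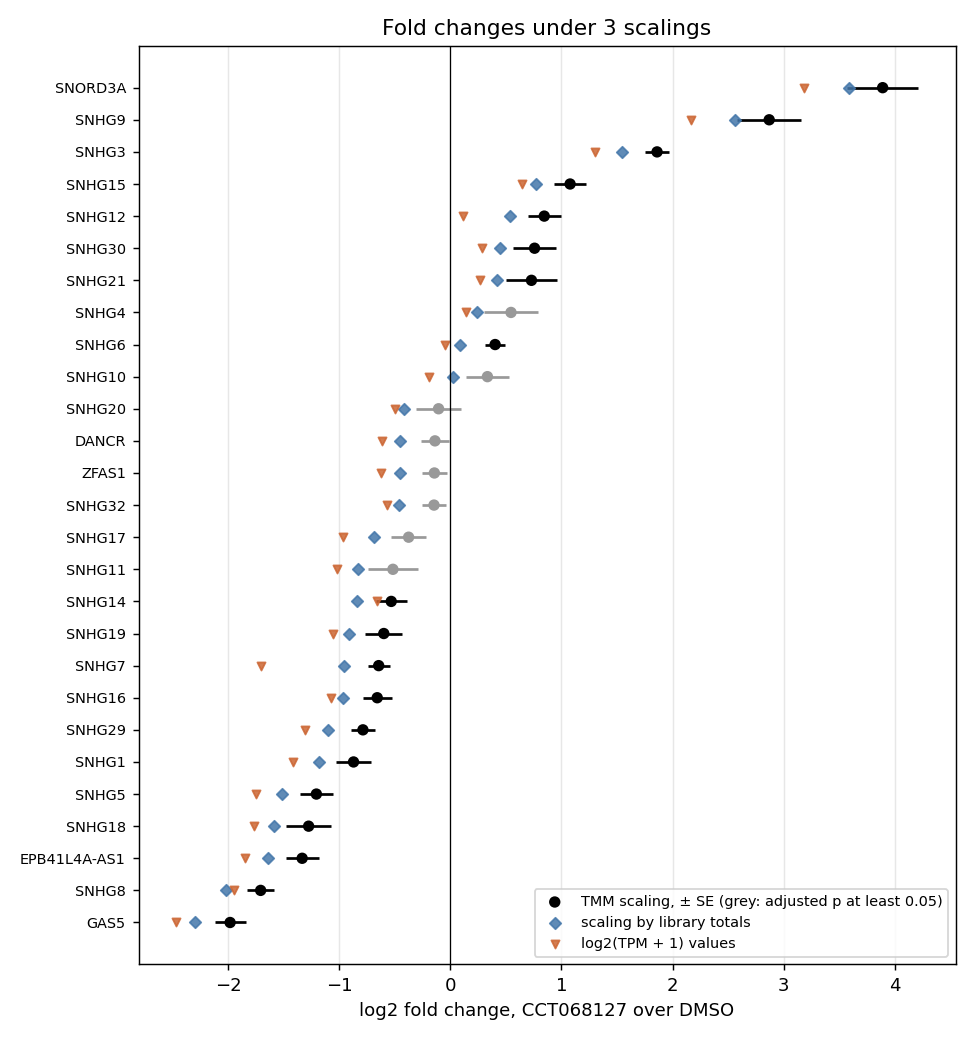
Log2 fold change of each tested host gene, CCT068127 over DMSO, under 3 scalings: TMM as circles with ± SE (black where the adjusted p was under 0.05, grey otherwise), library totals as blue diamonds and log2(TPM + 1) as orange triangles. The 4 genes at the top and the 5 at the bottom keep their side of 0 under all 3, while SNHG6 and SNHG10 lie right of 0 by TMM and left of it on TPM values.

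Among hosts that hold box C/D snoRNAs only, 11 were tested, of which 2 rose and 7 fell, with a median log2 fold change of -0.60, against 31.9% and 32.8% of all tested genes. The excess of falls over that share was not tested. GAS5, the growth arrest-specific host (chromosome 1, 173863901 to 173869045, minus strand), which also holds SNORA103 and so is not among these 11, had the lowest fold change of the tested hosts. Its level was 166, 197 and 207 CPM in the DMSO libraries and 54.6, 38.8 and 47.6 CPM in the CCT068127 libraries. The values did not overlap, and the fall was 3.95-fold, a log2 fold change of -1.98 ± 0.14 (SE, n = 3 per group, edgeR adjusted p = 7.71e-07). SNHG5 (chromosome 6, 85677007 to 85678733, minus strand), the host of SNORD50A and SNORD50B, stood at 40.4, 46.3 and 48.8 CPM in DMSO and at 22, 14.9 and 19.4 CPM under CCT068127. All treated libraries were below all controls, and SNHG5 fell 2.31-fold (-1.21 ± 0.15 on the log2 scale, edgeR adjusted p = 4.21e-05).

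SNHG1 (chromosome 11, 62851978 to 62855885, minus strand), first described as the host of SNORD22 (U22), stood at 163, 133 and 130.2 CPM in the controls and at 61.3, 94.3 and 81.9 CPM in the treated libraries. CCT068127 replicate 1 was the lowest, and the groups were apart, with a 1.83-fold fall (-0.87 ± 0.16, edgeR adjusted p = 0.000598). SNHG29 (chromosome 17, 16438987 to 16470648, plus strand), the host of SNORD49A, SNORD49B and SNORD65, was at 431, 514 and 508 CPM in the DMSO libraries and at 299, 251 and 290.0 CPM in the CCT068127 libraries. This host, the most abundant in DMSO, fell 1.72-fold (-0.79 ± 0.11, edgeR adjusted p = 0.000109). SNHG16, the host of the SNORD1 genes, was at 53.6, 55.4 and 58.5 CPM in DMSO and at 30.6, 44 and 34.6 CPM under CCT068127. Its values were also apart (-0.66 ± 0.13, edgeR adjusted p = 0.00131).

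SNHG18, the host of SNORD123, stood at 20.6, 17.3 and 18.2 CPM in the controls and at 9.99, 5.14 and 6.63 CPM in the treated libraries. It fell 2.42-fold with no overlap (-1.27 ± 0.20, edgeR adjusted p = 0.000265). SNHG19, the host of SNORD60, stood at 27.1, 25.3 and 20.2 CPM in the DMSO libraries and at 18.7, 16.6 and 13.5 CPM in the CCT068127 libraries. The nearest values of the groups, DMSO replicate 3 and CCT068127 replicate 1, differed little, and the fall (-0.60 ± 0.17, edgeR adjusted p = 0.00876) was not called without CCT068127 replicate 3 (adjusted p = 0.0587). SNHG14 was at 21.5, 26 and 26.6 CPM in DMSO and at 16.7, 17.1 and 17 CPM under CCT068127. The treated libraries lay close together, below every control (-0.53 ± 0.14, edgeR adjusted p = 0.00639).

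The 2 most abundant box C/D hosts beside GAS5 and SNHG29 did not pass. ZFAS1, the host of SNORD12, SNORD12B and SNORD12C, stood at 249, 305 and 322 CPM in the controls and at 264, 276 and 253 CPM in the treated libraries. SNHG32, the host of SNORD48 and SNORD52, stood at 168, 213 and 205 CPM in the DMSO libraries and at 178, 179 and 172 CPM in the CCT068127 libraries. In both, DMSO replicate 1 lay below all treated libraries and the other controls lay above them. Their log2 fold changes were -0.14 ± 0.11 and -0.15 ± 0.11 (edgeR adjusted p = 0.283 and 0.266). Without DMSO replicate 1 both passed as lower (-0.27 and -0.27, adjusted p = 0.0363 and 0.0384), and so they did with scaling by library totals (-0.46 and -0.46).

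The box C/D hosts that rose were SNHG30 and SNHG6. SNHG6, the host of SNORD87, was at 82.2, 76.7 and 77.8 CPM in DMSO and at 104, 106 and 104 CPM under CCT068127. The libraries of each group lay close together and apart from the other group, with a 1.32-fold rise (0.40 ± 0.09, edgeR adjusted p = 0.00287). This rise rests on the scaling: scaling by totals gave 0.09 (adjusted p = 0.385), and log2(TPM + 1) values gave -0.05 (limma adjusted p = 0.597). Without a low-count filter it was 0.16 (edgeR adjusted p = 0.453). SNHG30, the host of SNORD7, had 0.76 ± 0.19 (edgeR adjusted p = 0.00555) and lost its call by library totals (adjusted p = 0.0566), on log2(TPM + 1) values (0.29, limma adjusted p = 0.134) and without a low-count filter (adjusted p = 0.0929).

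Among hosts that hold box H/ACA snoRNAs only, 10 were tested, with 3 higher, 3 lower and a median of -0.26. These counts lie near the shares of all tested genes, 31.9% higher and 32.8% lower. SNHG8 (chromosome 4, 118278762 to 118279823, plus strand), the host of SNORA24, was at 104, 110.0 and 111 CPM in the controls and at 38.3, 28 and 31.2 CPM in the treated libraries. The groups were far apart, and the fall was 3.26-fold (-1.71 ± 0.12, edgeR adjusted p = 8.66e-07). EPB41L4A-AS1, the host of SNORA13, stood at 41.5, 49.1 and 48.5 CPM in the DMSO libraries and at 19, 13.7 and 20.4 CPM in the CCT068127 libraries. It fell 2.52-fold with no overlap (-1.33 ± 0.15, edgeR adjusted p = 2.00e-05). SNHG7 (chromosome 9, 136724594 to 136728184, minus strand), the host of SNORA17A and SNORA17B, was at 85.9, 90.2 and 90.9 CPM in DMSO and at 56.7, 53.1 and 59.9 CPM under CCT068127. Every treated library was below every control (-0.64 ± 0.10, edgeR adjusted p = 0.000197).

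SNHG3 (chromosome 1, 28505943 to 28510892, plus strand) holds SNORA73A and SNORA73B, the U17 snoRNAs that act in the cleavage of the ribosomal RNA precursor. Its level was 66.6, 55.4 and 57.3 CPM in DMSO and 202, 217 and 234 CPM under CCT068127. The lowest treated library was above the highest control by a wide margin, and the rise was 3.63-fold (1.86 ± 0.11, edgeR adjusted p = 2.83e-07). SNHG15, the host of SNORA9, stood at 21.6, 17.6 and 16.1 CPM in the controls and at 41.8, 33.1 and 41.9 CPM in the treated libraries. This rise was 2.11-fold without overlap (1.08 ± 0.14, edgeR adjusted p = 8.11e-05). SNHG9, the host of SNORA78 beside the ribosomal protein gene RPS2, stood at 1.32, 1.29 and 1.94 CPM in the DMSO libraries and at 6.73, 12 and 12.3 CPM in the CCT068127 libraries. Its rise was 7.31-fold (2.87 ± 0.29, edgeR adjusted p = 9.98e-06), from a level near 1 to 2 CPM, and against DMSO replicate 3 alone the fitted log2 value was 2.33. In DMSO replicates 1 and 2 SNHG9 lay below the 1.74 CPM of the low-count filter. It was tested only because the CCT068127 libraries passed, and the p-value takes no account of that.

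Other box H/ACA hosts did not pass. DANCR, known as an anti-differentiation RNA and the host of SNORA26, stood at 34.8, 32.6 and 28.7 CPM in DMSO and at 28.5, 26.8 and 32 CPM under CCT068127. SNHG17, the host of 4 SNORA71 genes, was at 25, 22.4 and 22.2 CPM in the controls and at 16.3, 13.7 and 22.2 CPM in the treated libraries. The groups overlapped in both. The log2 fold changes were -0.14 ± 0.12 and -0.38 ± 0.16 (edgeR adjusted p = 0.350 and 0.0600). SNHG17 was called lower without CCT068127 replicate 3, the treated library with its highest level (-0.61, adjusted p = 0.0129), and both were called lower by library totals (-0.45 and -0.69). The sign of DANCR turned against DMSO replicate 3 alone (0.003). SNHG11 and SNHG4, at lower levels, had -0.52 ± 0.23 and 0.55 ± 0.25 (edgeR adjusted p = 0.0658 and 0.0726). SNHG11 was called lower by library totals (-0.83, edgeR adjusted p = 0.0079), without a low-count filter (-0.77, 0.0151) and on log2(TPM + 1) values (-1.02, limma adjusted p = 0.00134).

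SNHG12 (chromosome 1, 28578538 to 28582983, minus strand) holds both classes, 3 box H/ACA snoRNAs and SNORD99. It stood at 34.7, 34.8 and 35.2 CPM in the DMSO libraries and at 47.9, 70.3 and 72.4 CPM in the CCT068127 libraries. The controls lay within 1 CPM of each other, CCT068127 replicate 1 was the lowest treated library, and the rise was 1.80-fold (0.85 ± 0.15, edgeR adjusted p = 0.000536). By library totals the rise was 0.54 (edgeR adjusted p = 0.00985). On log2(TPM + 1) values, which differ from these in scaling and in length, it was 0.11 and not called (limma adjusted p = 0.574), and the TPM of the groups overlapped.

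The scaRNA hosts gave small changes. SNHG10, the host of SCARNA13, was at 9.45, 9.07 and 10.6 CPM in DMSO and at 14.3, 13.1 and 8.99 CPM under CCT068127. CCT068127 replicate 3 was the lowest of the 6 libraries, and the difference did not pass (0.33 ± 0.19, edgeR adjusted p = 0.149). Without that library it was called higher (0.53, adjusted p = 0.0338), and on log2(TPM + 1) values the sign turned (-0.20). SNHG20 did not pass (-0.11 ± 0.20, edgeR adjusted p = 0.847), but was called lower on log2(TPM + 1) values (-0.50, limma adjusted p = 0.0167). SNHG21 rose (0.73 ± 0.23, edgeR adjusted p = 0.0170), but its call was lost by library totals (adjusted p = 0.122) and without DMSO replicate 2 or CCT068127 replicate 3 (0.0725 and 0.0545). It was also lost with the deep controls thinned (edgeR adjusted p = 0.0606), on log2(TPM + 1) values (limma adjusted p = 0.155) and without a low-count filter (edgeR adjusted p = 0.188).

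SNORD3A had the highest fold change of all tested members. It encodes U3, the box C/D snoRNA that acts in pre-ribosomal RNA cleavage rather than in methylation, and it is transcribed from its own promoter. The sequence below, 217 bases from GENCODE release 29 (chromosome 17, 19188016 to 19188232, plus strand), is shown because this is the only member that is a snoRNA and not its host. Capitals mark TGATGA, the letters of the C box core, found once, and CTGA, the letters of the D box, found 3 times in the transcript.
SNORD3A: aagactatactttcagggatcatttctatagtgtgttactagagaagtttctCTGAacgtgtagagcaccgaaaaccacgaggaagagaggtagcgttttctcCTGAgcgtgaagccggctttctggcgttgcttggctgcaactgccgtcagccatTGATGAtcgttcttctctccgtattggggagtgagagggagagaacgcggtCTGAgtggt
Its estimated counts were 277, 378 and 8 in DMSO and 37, 28 and 56 under CCT068127. Scaled to depth they were 0.671, 0.838 and 1.19 CPM and 7.54, 16 and 13.3 CPM, a 14.8-fold rise with no overlap (3.89 ± 0.32, edgeR adjusted p = 2.31e-06). No DMSO library reached the 1.74 CPM that the low-count filter asked of at least 3 libraries. SNORD3A thus entered the test through the CCT068127 libraries alone, and the p-value takes no account of that. Against DMSO replicate 3 alone, the fitted log2 value was 3.23. U3 has near-identical gene copies, so its share of their reads is uncertain. Mature U3 carries no poly(A) tail, and poly(A) libraries read such RNAs at low levels. Of 14 RNAs without a poly(A) tail chosen for comparison, 4 were tested: RN7SK, the RNA that holds the kinase P-TEFb inactive, rose from 1.09 ± 0.264 to 45.3 ± 3.36 CPM (SD, n = 3), and RPPH1, the RNA of RNase P, rose from 0.841 ± 0.366 to 5.86 ± 2.97 CPM (SD, n = 3). RN7SK and RPPH1 also passed the filter through the CCT068127 libraries alone. The signal recognition particle RNAs RN7SL1 and RN7SL2 did not pass (0.31 ± 0.21 and -0.50 ± 0.27 on the log2 scale, edgeR adjusted p = 0.216 and 0.141). The summed TPM of the 14 was 4282, 4903 and 3074 in DMSO and 2081, 3548 and 3500.1 under CCT068127, and 1 of them had a count of 0 in every library. RN7SL1 and RN7SL2 made up most of that sum, and the other 12 RNAs summed to 38.9, 51.8 and 20.9 TPM in DMSO and to 475, 593 and 547 TPM under CCT068127. RN7SK gave 264, 314 and 281 TPM of the treated sums. Beside RN7SK and RPPH1, none of the 12 had more than 11 counts in a treated library. For short RNAs such counts give high TPM: 1 of them had 1 count and 44.6 TPM in CCT068127 replicate 2. On log2(TPM + 1) values 7 of the 12 tested were called higher and 1 lower, with a median of 2.17, beside 17.2% higher and 51.9% lower over all genes. These calls and this median rest for the most part on RNAs with such low counts. The part of tail-less RNA capture in the rise of SNORD3A was not tested.

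The 6 untested members did not reach the low-count filter of 1.74 CPM in at least 3 libraries. Outside the deep DMSO replicates 1 and 2 they had at most 10 counts. In those deep libraries SNHG27 had 1 and 3 counts, at the limit of detection, and each of the others had at least 108. SNHG22, SNHG25, SNHG26, SNHG27, SNHG28 and SNHG31 had group means between 0 and 2.67 CPM. A count of 0 allowed up to 0.00809 and 0.0073 CPM in the deep DMSO replicates 1 and 2, and from 0.504 to 1.52 CPM in the other 4 libraries. By CPM, SNHG28 was the highest of them under CCT068127 and lay below SNHG26 in DMSO. It stood at 0.620, 0.931 and 0.747 CPM in the controls and at 1.63, 4 and 2.37 CPM in the treated libraries. SNHG25, the host of SNORD104, has a short RNA, so its few counts gave 30.4, 31.3 and 46.5 TPM in DMSO and 43.9, 85 and 88 TPM under CCT068127, with overlap.

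The ratio of a gene's estimated count to its TPM is proportional to the mean effective length of the transcripts its reads were assigned to, and it gave a readout apart from the level. Of the 24 host genes with at least 10 counts in every library, 6 differed in this implied length at an adjusted p under 0.05 (limma), 4 longer and 2 shorter under CCT068127. Over 10628 genes the share was 9.35%, and 6 of 24 is a larger share than that, an excess that was not tested. The count fell to 3 without any 1 of the 3 DMSO libraries, and ranged from 4 to 6 without 1 treated library.

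SNHG7 had the largest change. Relative to the median gene of a library its log2 implied length was -1.76, -1.76 and -1.75 in DMSO and -1.18, -1.09 and -1.22 under CCT068127. The groups were far apart, and the implied length was 1.51-fold longer (0.59 ± 0.04, limma adjusted p = 0.00230), called under all 10 alternatives. In GENCODE release 29 its 4 transcripts run from 509 to 2357 bases. SNHG7 was at 200.5, 206 and 211 TPM in the DMSO libraries and at 62, 56.5 and 69.4 TPM in the CCT068127 libraries. The log2 fold change was -0.64 by TMM, -0.96 when scaled to totals, and -1.70 for log2(TPM + 1), which differ from the TMM value in both scaling and length. DIPK1B, which overlaps SNHG7 in RefSeq, rose from 1.69 ± 0.611 to 11.1 ± 2.90 CPM (SD, n = 3), and its part in the change of length was not tested.

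In SNHG12 the log2 implied length was -2.02, -2.04 and -1.99 in DMSO and -1.75, -1.76 and -1.79 under CCT068127. This increase (0.25 ± 0.02, 1.19-fold, limma adjusted p = 0.00346) was called under 9 of 10 alternatives. Its 17 GENCODE transcripts run from 389 to 1998 bases. SNHG8 went the other way, with -2.60, -2.59 and -2.60 in DMSO and -2.96, -2.80 and -2.84 under CCT068127. Its implied length was 1.21-fold shorter (-0.27 ± 0.04, limma adjusted p = 0.0275), with no overlap between the groups, but it was called in only 4 of 9 alternatives. Its 5 GENCODE transcripts run from 309 to 672 bases.

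The other changes in implied length were small. SNHG3 (0.08 ± 0.01, limma adjusted p = 0.00259) was called under all 10 alternatives, while SNHG1 (0.09 ± 0.01, 0.0260) and SNHG32 (-0.04 ± 0.01, 0.0397) were called under 4 each. GAS5 had no detected change in length (-0.01 ± 0.01, limma adjusted p = 0.433) beside its large fall in level. The same held for EPB41L4A-AS1 (0.0132 ± 0.0044, limma adjusted p = 0.0933) and SNHG5 (0.0125 ± 0.0047, limma adjusted p = 0.112).

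**Figure D3:**
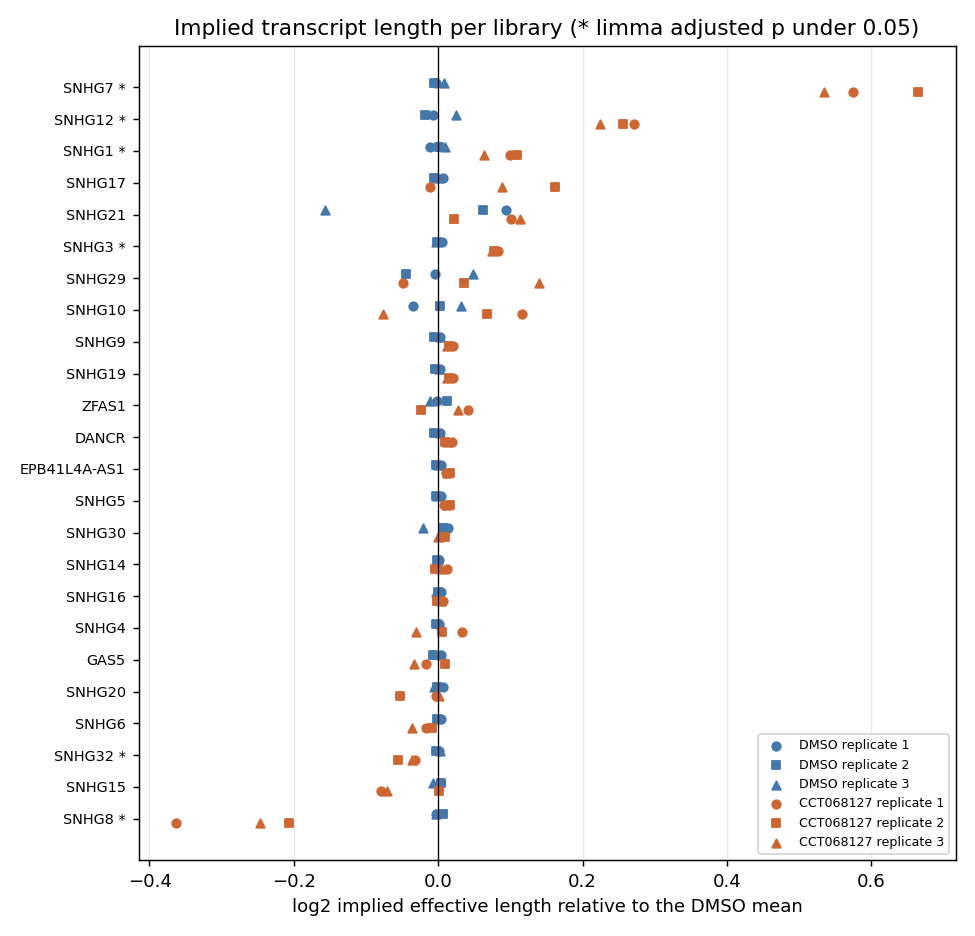
Log2 implied effective length (estimated count over TPM, centred on each library's median gene) of 24 host genes in each library, relative to the gene's DMSO mean, with blue DMSO and orange CCT068127 points. Stars mark the 6 genes at a limma adjusted p under 0.05, and SNHG7, SNHG12 and SNHG8 lie farthest from 0.

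Many host genes share a start region or overlap with another gene, and no source used here states whether the libraries keep strand. Reads from bases that the exons of overlapping genes share therefore cannot be told apart. Overlap was taken over whole gene spans on either strand, introns included, and exons were not compared. Several neighbours went against their host. GAS5 starts within 1000 bases of ZBTB37, a zinc finger gene on the opposite strand that also overlaps it, and ZBTB37 rose from 8.29 ± 0.658 to 27.7 ± 3.94 CPM (SD, n = 3), or by 1.72 ± 0.15 on the log2 scale (edgeR adjusted p = 2.87e-06). On log2(TPM + 1) values the call on ZBTB37 was lost (0.36, limma adjusted p = 0.071). TRAF7, a ubiquitin ligase gene that starts beside SNHG19, had 0.46 ± 0.12 (edgeR adjusted p = 0.00566; -0.03 on log2(TPM + 1) values) while SNHG19 fell, and was not called by library totals (adjusted p = 0.267). RCC1, the nucleotide exchange factor of Ran, overlaps SNHG3 and did not pass (-0.08 ± 0.11, edgeR adjusted p = 0.527) beside the rise of its partner, though it was called lower by library totals (-0.39, adjusted p = 0.00617). TRNAU1AP, which acts in selenoprotein synthesis and overlaps SNHG12, fell (-0.54 ± 0.19, edgeR adjusted p = 0.0264), a call lost when DMSO replicate 3, CCT068127 replicate 1 or the treated replicate 3 was left out (adjusted p = 0.0518, 0.112 and 0.124).

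Other neighbours had the sign of their host. SLC3A2, the amino acid transporter chain that starts beside SNHG1, fell (-0.44 ± 0.12, edgeR adjusted p = 0.00868), as did EPB41L4A (-1.07 ± 0.16), LRRC75A beside SNHG29 (-0.61 ± 0.19) and SEMA5A beside SNHG18 (-0.87 ± 0.24). LRRC75A lost its call with the deep controls thinned (adjusted p = 0.0669). RPS2, a ribosomal protein gene next to SNHG9, rose by much less than its neighbour (0.59 ± 0.12, edgeR adjusted p = 0.00108), and on log2(TPM + 1) values it was not called (0.09, limma adjusted p = 0.428). GLRX5 beside SNHG10 (0.44 ± 0.11, and -0.04 on log2(TPM + 1) values), MATR3 over SNHG4 (0.51 ± 0.13) and FSD2 over SNHG21 (1.92 ± 0.34) also had higher values. GLRX5 and MATR3 were not called by library totals (edgeR adjusted p = 0.287 and 0.198). ZNFX1, paired with ZFAS1, fell (-0.86 ± 0.16, edgeR adjusted p = 0.000832) where ZFAS1 did not pass. PRSS12 paired with SNHG8 (0.17 ± 0.19), USP46 paired with DANCR (-0.26 ± 0.15) and SEC14L1 over SNHG20 (-0.17 ± 0.14) did not pass. RPS2, ZNFX1, PRSS12 and USP46 were paired with their hosts from a written list. For these pairs the position search found no overlap and no opposite-strand start within 1000 bases, and SNHG9 had no promoter entry to search from. By library totals USP46 and SEC14L1 were called lower (-0.57 and -0.48) and PRSS12 turned to -0.14, while SEC14L1 turned to 0.0161 against DMSO replicate 3 alone.

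The SNHG14 region of chromosome 15, an imprinted region, holds several genes that overlap the host, and those tested fell with it. SNRPN, whose transcript shares the start of the long host RNA, had -0.83 ± 0.09 (edgeR adjusted p = 2.55e-05). SNURF, IPW and the ubiquitin ligase gene UBE3A had -1.11 ± 0.23, -1.12 ± 0.25 and -0.53 ± 0.12, all past the threshold. PWAR6 stood at 5.10 ± 0.760 CPM in DMSO and was at a count of 0 in CCT068127 replicates 2 and 3. Reads in this region can count for several of these genes.

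**Figure D4:**
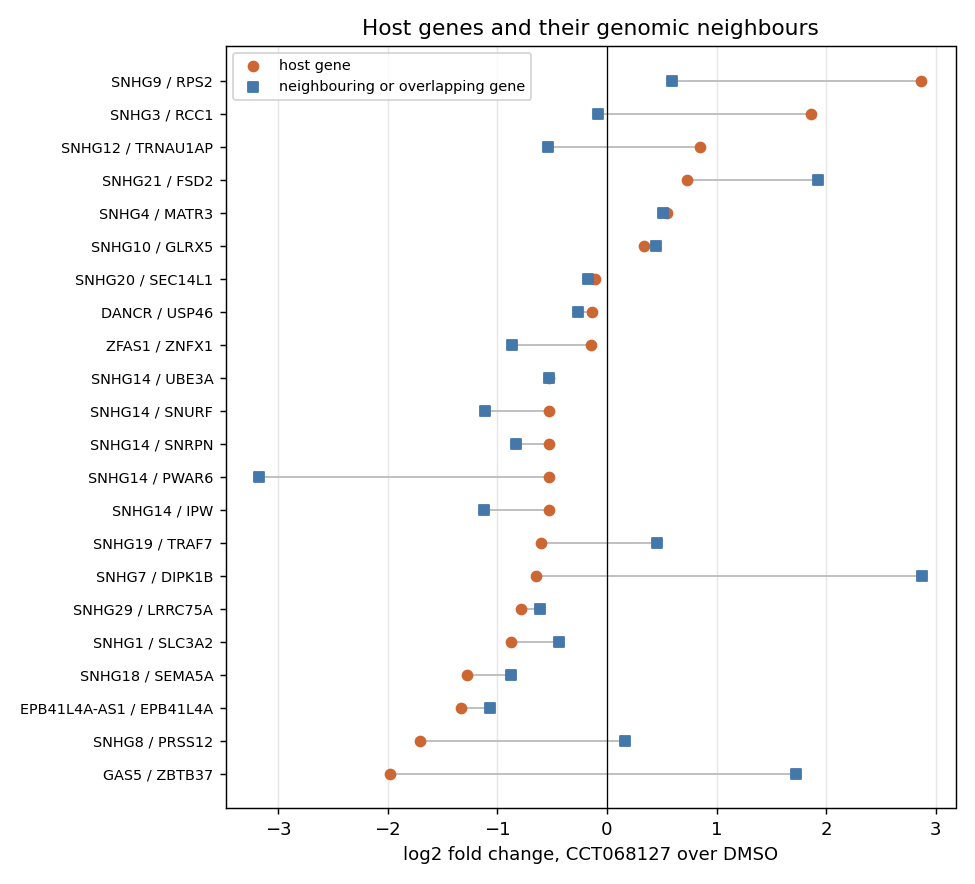
Log2 fold changes, CCT068127 over DMSO, of tested host genes (orange circles) and of their neighbours (blue squares), joined by a grey line. Neighbours overlap the host, start beside it or were paired with it from a written list. The GAS5 and ZBTB37 pair spans from -1.98 to 1.72, while the genes of the SNHG14 region all lie left of 0. PWAR6 was at a count of 0 in 2 treated libraries, so its point is set in part by the prior count.

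Among genes for the proteins of snoRNA particles, several had higher values by TMM, and their calls depended on the scaling. Of all tested genes, 31.9% were called higher and 32.8% lower by TMM, and 22.1% and 48.3% by library totals. On log2(TPM + 1) values the shares were 17.2% and 51.9%. Of the 4 box C/D core genes, 3 rose (median of the 4 at 0.51): NOP56 (0.61 ± 0.09), SNU13 (0.58 ± 0.10) and FBL, which encodes fibrillarin (0.44 ± 0.10). On log2(TPM + 1) values these calls were lost (0.09, 0.09 and -0.03, limma adjusted p = 0.297, 0.415 and 0.771), with a median of 0.03. Of 10 genes listed as assembly factors 7 rose, among them RUVBL1 (0.93 ± 0.10), NOLC1 (0.91 ± 0.10) and DDX39B (0.45 ± 0.09), with a median of 0.44. DDX39B itself holds SNORD84 and SNORD117, and its place in this list was not tested. By library totals 2 of the 10 were called higher, and on log2(TPM + 1) values 2 were higher and 1 lower, with DDX39B at -0.01. Of 6 box H/ACA genes, NOP10 (0.81 ± 0.10) and NHP2 (0.51 ± 0.11) rose and GAR1 fell (-0.31 ± 0.12, edgeR adjusted p = 0.0433). The call on GAR1 was lost without any 1 library other than CCT068127 replicate 2 (adjusted p from 0.0587 to 0.0901), with the replicate block (0.0945), with DESeq2 size factors (0.074), with DESeq2 (0.107) and with limma-voom (0.104). By library totals 4 of the 6, GAR1 included, were lower, NOP10 alone was higher and NHP2 was not called (adjusted p = 0.11).

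Factors of nonsense-mediated decay, which degrades several of these hosts, were split. By TMM 31.9% of all tested genes rose and 32.8% fell. Of 19 tested, 4 rose and 7 fell (median -0.15), with PNRC2 (-1.41 ± 0.13), SMG6 (-0.73 ± 0.12) and SMG1 (-0.53 ± 0.12) lower. By library totals 2 were higher and 13 lower, where 22.1% of all tested genes were higher and 48.3% lower. Of 19 genes whose mRNAs are known targets of this decay, 7 rose and 9 fell (median -0.10), from SRSF6 (-1.88 ± 0.20), ATF4 (-1.52 ± 0.09) and SRSF3 (-0.86 ± 0.10) to GADD45B (4.67 ± 0.20). By library totals the split was 3 and 12.

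TOP RNAs are held or translated through the kinase mTORC1 and the protein LARP1. Of 18 regulators in this list 2 rose and 8 fell (median -0.29), against 31.9% and 32.8% of all tested genes. By library totals 2 rose and 15 fell, against 22.1% and 48.3%. The mTORC1 brakes DDIT4 (-3.04 ± 0.11) and SESN2 (-1.85 ± 0.17) and the kinase gene RPS6KB1 (-1.01 ± 0.12) fell, and the mTORC1 activator RHEB rose (1.47 ± 0.09). Among the host genes, the 15 tested ones with a C-led pyrimidine run within 10 bases of the start had 1 higher and 8 lower (median -0.53), and the 8 without one had 3 higher and 3 lower (median 0.11). With the run at the start itself, 1 of 7 rose and 3 fell (median -0.15), against 3 and 8 of 16 without it (median -0.52). The 2 ways of placing the run thus order the medians oppositely. Both splits leave out 4 tested members with no promoter entry (SNORD3A, SNHG9, SNHG15 and SNHG6), all 4 of which were called higher.

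**Figure D5:**
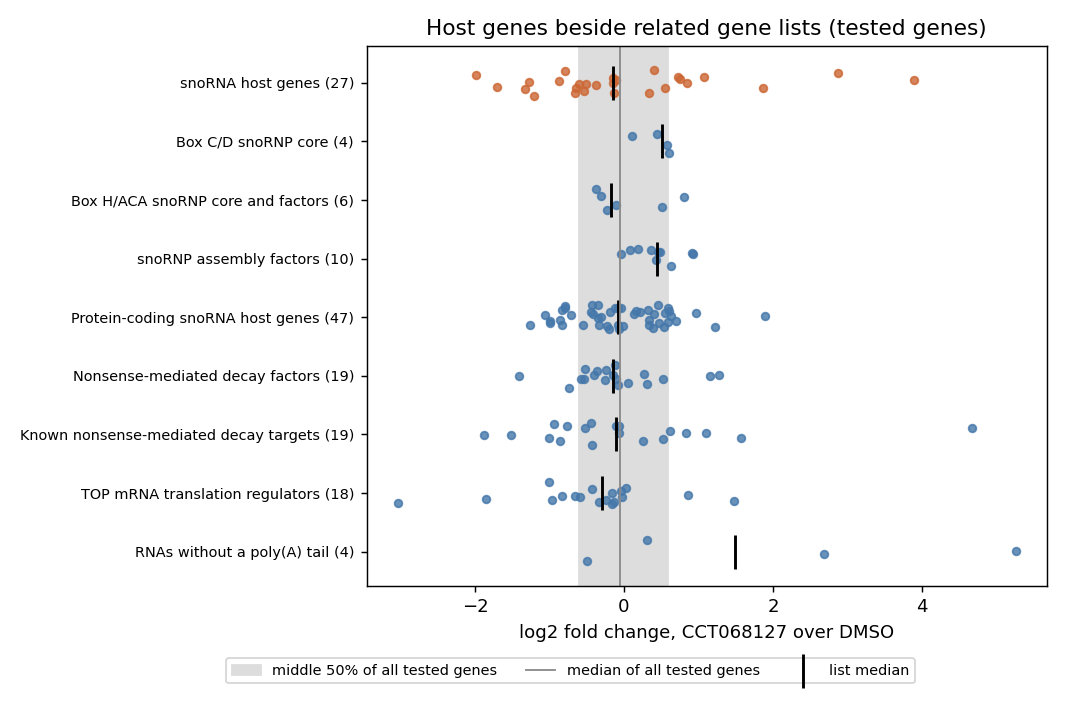
Log2 fold changes, CCT068127 over DMSO, of the tested snoRNA host genes (orange) and of the tested genes of related lists (blue), with the number tested in brackets, a black tick at each list's median and the middle 50% of all tested genes shaded. Host genes reach from -1.98 to 3.89, while the box C/D core and the genes listed as assembly factors lie in a narrow band mostly right of 0.

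The libraries differed in depth. DMSO replicates 1 and 2 had 371044040 and 411097626 counts, and the other 4 had from 1966742 to 5955296, so the precision of most values is set by the shallow libraries. With DMSO replicates 1 and 2 thinned to the depth of DMSO replicate 3, 7 host genes rose and 11 fell. Over all genes tested then, 31.18% rose and 30.63% fell. Of the 12 urothelial epithelial markers, none was at 0 in every library, and their summed level was from 3776 to 4954 TPM in DMSO and from 5295 to 6744 TPM under CCT068127. That sum was keratins for the most part, while CDH1, the epithelial cadherin, was at most at 0.14 TPM and each uroplakin at most at 1.83 TPM in any library. GATA3, a transcription factor gene of the urothelium, went against the sum and fell from 123 ± 15.9 to 26.6 ± 4.08 CPM (SD, n = 3) (edgeR adjusted p = 5.67e-07). The part of these changes in the results on host genes was not tested. The 15 markers of other cell types summed to between 10.9 and 13.7 TPM in all libraries, with DCN at 0 throughout. Within this sum 2 were called higher and 2 lower, all at low levels. LYZ rose from 0.214 ± 0.0577 to 3.38 ± 0.962 CPM (SD, n = 3) and ACTG2 rose from 0.830 ± 0.239 to 4.98 ± 1.37 CPM (SD, n = 3). LYZ and ACTG2 passed the low-count filter through the CCT068127 libraries alone. PECAM1, 1 of the 2 that fell, went from 5.49 ± 1.14 to 2.29 ± 0.158 CPM (SD, n = 3). In bulk RNA, fewer cells of a kind and less RNA per cell cannot be told apart.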

How the data were processed

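Poly(A) RNA-seq of T-24 cells was analysed in 3 DMSO and 3 CCT068127 libraries, grouped by their titles. The deposited count table holds estimated counts for each symbol as whole numbers, and the TPM values are also the authors' own. The submitters' processing notes name RSEM, Bowtie and hg38. Versions, annotation and strandedness are not given in the sources used here. In each library 27 to 203 genes had a TPM above 0 but a count of 0, a mark of rounding that limits values near 0.

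Members were found by symbol. They, the gene lists and the alternatives were chosen with earlier results of these data known. The main test used edgeR 4.0.16 under R 4.3.3 (filterByExpr, TMM, robust quasi-likelihood test, Benjamini-Hochberg). The filter asked for at least 1.74 CPM in 3 or more libraries of either group and left 13597 genes. That level is 10 counts at the median library total. Genes at an adjusted p under 0.05 were called. Standard errors were approximated from the F statistic. Implied length was log2(count / TPM), centred on each library's median over 10628 genes with at least 10 counts in all libraries, tested with limma 3.58.1 (robust). Both steps were tested on simulated data. Alternatives were DESeq2 1.42.0 and its size factors, limma-voom, upper-quartile scaling, library totals, no filter, limma-trend on log2(TPM + 1) (filter of 1 TPM in 3 libraries, or none) and log2(TPM + 0.1), thinning (1 draw), DMSO replicate 3 as the sole control, a replicate block and leaving out each library. Floors are 3 counts of a library's total and cover counting error only.

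Named in the text are all tested members, with values per library for those with a mean of at least 10 CPM, the 3 highest and 3 lowest called fold changes, and SNORD3A. From every other list the text names at most 3 called genes of the direction with more calls and 1 of the opposite direction, by smallest adjusted p, and both genes of neighbouring pairs. A gene that this rule selects is not reported here by name. SNHG28 and SNHG25 were given per-library values after these were seen. Positions, snoRNA content and promoters are from RefSeq (GRCh38.p14), which matched all 33 members, with promoters for 28. Transcript lengths and the SNORD3A sequence are from GENCODE release 29. The p-values measure the spread between these libraries.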

Additional observations from a re-analysis of the deposited data

How the results depend on the processing

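Counts of host genes called higher were 5 by library totals, 4 on unfiltered log2(TPM + 1) values, and 8 or 9 without any 1 library. Over all genes tested in these settings 22.11%, 10.9% and from 27.73 to 31.75% were called higher. Counts called lower were 18 of 30 on log2(TPM + 1) and log2(TPM + 0.1) values, 17 of 33 on unfiltered TPM values, and from 11 to 13 without 1 library. Over all genes 51.91% and 50.71%, 26.42%, and from 27.74 to 34.19% were called lower, in this order. The median log2 fold change of the host genes, -0.15 with TMM, was -0.46 by library totals, -0.38 without a low-count filter, -0.33 with DMSO replicate 3 as the sole control, -0.62 on log2(TPM + 1) and log2(TPM + 0.1) values and -0.57 on unfiltered TPM values. It was from -0.27 to -0.19 without 1 library. The number of hosts with a changed implied length was 2 with a replicate block (SNHG3 and SNHG7), and from 3 to 6 without 1 library.

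Signs turned for some single genes. With DMSO replicate 3 as the sole control DANCR was at 0.003, SEC14L1 at 0.0161 and MYO5B at 0.623. MYO5B, a neighbour of SNHG22 at -0.0085 with TMM, was also at 0.0328 with DESeq2 size factors, 0.0582 with DESeq2, 0.038 with the replicate block, and from -0.372 to 0.314 without 1 library. On log2(TPM + 1) values with and without a filter and on log2(TPM + 0.1) values, in this order, genes with higher values by TMM were lower: SNHG10 at -0.195, -0.195 and -0.21, SNHG6 at -0.0457, -0.0457 and -0.0459, ACAA2 (beside SNHG22) at -0.0383, -0.0383 and -0.0411, and DDX39B at -0.0089, -0.0089 and -0.009. In the same order FBL was at -0.0282, -0.0282 and -0.0283, GLRX5 at -0.0362, -0.0362 and -0.0364, TRAF7 at -0.0294, -0.0294 and -0.0298 and PRSS12 at -0.134, -0.134 and -0.144. PRSS12 was also at -0.0671 without a low-count filter and at -0.14 by library totals. The cause of these turns was not tested.

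Of 459 tested fits of a member under an alternative, 403 kept the direction and the side of the threshold. The 27 fits against DMSO replicate 3 alone have no test, and 26 of them kept the direction. No pairing by replicate number was seen: same-numbered DMSO and CCT068127 libraries had correlations of 0.0038, 0.0049 and 0.0062 of their deviations from the group means. Libraries with different numbers had from -0.0289 to 0.0229. Counting error in the shallow libraries adds to these deviations, so the values cannot exclude a pairing. With the replicate block 8 host genes rose and 11 fell, as without it. Over all genes tested with the block, 30.21% rose and 30.82% fell.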

Other observations

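Beyond the SNHG family, 152 tested genes hold a snoRNA inside their span in GENCODE release 29, most of them coding for proteins. Of these 47 rose and 51 fell, with a median log2 fold change of -0.07, close to the shares over all tested genes (31.9% and 32.8%). By library totals 26 rose and 77 fell, against 22.1% and 48.3% of all tested genes. The 28 ribosomal protein genes among them had 11 higher and 14 lower (median -0.21), and the 56 tested ribosomal protein genes without a listed snoRNA had 24 higher and 16 lower (median 0.06). The difference between these 2 sets was not tested. RACK1, a ribosome-bound scaffold protein, fell from 1792 ± 40.4 to 747 ± 63.1 CPM (SD, n = 3), and TPT1, the translationally controlled tumour protein, fell from 2273 ± 137 to 1093 ± 68.2 CPM (SD, n = 3). RPL3 fell (-0.99 ± 0.10), while RPSA, the host of SNORA6 and SNORA62, rose from 769.8 ± 11.5 to 2859 ± 156 CPM (SD, n = 3). NOP53, a ribosome biogenesis factor (-1.82 ± 0.16), and RBMX, an RNA-binding protein (-1.18 ± 0.10), fell, and ATP6V0E1, a subunit of the vacuolar proton pump, rose (1.85 ± 0.09). In the list of 47 tested protein-coding hosts written from general knowledge, 16 rose and 18 fell (median -0.08).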
